A study of Mus musculus with 24 samples.

Results

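The genes described here encode the matrix metalloproteinases (Mmp), the ADAMTS proteases and ADAMTS-like proteins (Adamts, Adamtsl) and the tissue inhibitors of metalloproteinases (Timp1 to Timp4). They were chosen by gene name alone, which gave 51 of the 55341 gene names in the count table. These were 23 Mmp, 19 Adamts, 5 Adamtsl and 4 Timp genes.

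Matrix metalloproteinases are zinc-dependent enzymes that cut collagens, gelatins and other matrix proteins, and most are made as inactive precursors that lose a propeptide when activated. ADAMTS proteases are secreted relatives with thrombospondin repeats, among them enzymes that process procollagens and enzymes that cut versican and aggrecan, while ADAMTS-like proteins carry the repeats without the protease domain. TIMPs bind the active site of these enzymes and block it, and in the mammary gland the balance of both sides takes part in branching and involution. Glucocorticoids such as dexamethasone act through the glucocorticoid receptor and are known to hold down several inducible metalloproteinase genes through AP-1, a transcription factor that binds their promoters. NIPBL loads cohesin, the ring complex that extrudes DNA loops.

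RNA was sequenced from 3134 cells, a mouse line labelled as mammary adenocarcinoma cells, which carried a short hairpin against NIPBL that IPTG switches on. Into these cells the authors put an empty vector (EV), wild-type NIPBL (WT) or the NIPBL mutants C1, C2 and C1-C2 by piggyBac integration. The 6 states were empty vector without IPTG and, with 1 mM IPTG, empty vector, WT, C1, C2 and C1-C2. Each was sampled in ethanol and after 100 nM dexamethasone for 2 h, with 2 libraries in each of the 12 groups, after 3 days in charcoal-stripped serum. All 24 libraries carried the hairpin construct, no group had IPTG without it, and the labels name no clones, so each construct is treated here as 1 line. The series calls the replicates biological without naming separate cultures, so p-values measure the spread between these libraries.

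Assigned reads were 32.5 to 42.7 M per ethanol library and 45.0 to 72.9 M per dexamethasone library. Nipbl, the target of the hairpin, was at 151 to 186 CPM (reads scaled to a common library size) in the 4 libraries without IPTG and at 48.0 to 73.3 CPM in the 20 with it. Markers of mammary epithelium were mostly absent: 7 of 8 were under 1 CPM in every library, Epcam and Cldn3 were at 0 throughout, and the list summed to 14.0 to 22.6 CPM, nearly all of it Krt14. Of 7 mesenchymal markers 1 was under 1 CPM in every library, and their sum was 6768 to 8949 CPM, with Vim at 3328 to 4458 CPM. Immune markers summed to 7.52 to 11.4 CPM, almost only Cd68, and endothelial markers to at most 0.474 CPM. Replicate 2 of C1-C2 in ethanol has an ethanol title and a dexamethasone treatment label, and was grouped by its title. Its library number follows on from those of the other ethanol libraries and is apart from the dexamethasone ones. Its level of Adamts14, a member that rose with dexamethasone in every line, was 15.1 CPM, against 8.73 to 15.7 CPM in the ethanol libraries as a whole and 19.4 to 27.5 CPM in the dexamethasone libraries.

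Of the 51 genes, 23 had enough reads to be tested (8 Mmp, 8 Adamts, 4 Adamtsl, 3 Timp) and 28 had not. Among the 28, Adamts3, Adamts5, Adamts19, Adamts20, Mmp1b, Mmp12, Mmp16 and Mmp20 had no read in any of the 24 libraries. The other 20 had reads but at most 18 in a library (Mmp24), 14 (Timp4), 6 (Mmp15 and Adamtsl1), 5 (Adamts17) or 3. Adamts5, the main aggrecan-cutting ADAMTS of cartilage, was thus without a read while its neighbour on chromosome 16, Adamts1, was among the abundant members. Of the 23 tested genes 17 averaged at least 1 CPM, and Mmp2, Mmp9, Mmp10, Mmp23, Adamts6 and Adamts12 were below that.

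A run of 10 matrix metalloproteinase genes lies on chromosome 9, between 7272514 and 7699585 (mm10), a stretch of 427 kb. Mmp10, stromelysin 2, was the only gene of this group that could be tested. The other 9 genes, among them the collagenases Mmp13 and Mmp8, stromelysin 1 (Mmp3) and matrilysin (Mmp7), together had 55 reads over the 24 libraries, with at most 3 of any gene in a library. Promoter windows of 300 bases, from 250 before to 50 after the start site, were found in RefSeq for 36 of the 51 genes (GRCm38.p6). The AP-1 motif TGANTCA, which is its own reverse complement, was in a window of 8 of the 10 chromosome 9 genes, in none of the windows of the other members, and in 7.81% of all 32851 windows. The windows of Mmp8 and Mmp27 did not hold these letters. The 8 stretches are shown because they come from a gene group in which 1 gene was read and the rest were almost silent. Each is printed 5′ to 3′ on the gene's strand with the motif in capitals and 20 bases on either side, for Mmp10 at chr9:7502259-7502305 on the plus strand.
Mmp10: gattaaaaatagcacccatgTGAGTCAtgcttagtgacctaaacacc
Mmp13: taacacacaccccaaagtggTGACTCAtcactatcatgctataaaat
Mmp3: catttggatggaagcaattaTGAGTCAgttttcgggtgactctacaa
Mmp12: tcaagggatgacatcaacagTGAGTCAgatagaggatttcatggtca
Mmp1a: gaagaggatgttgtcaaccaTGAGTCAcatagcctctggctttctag
Mmp1b: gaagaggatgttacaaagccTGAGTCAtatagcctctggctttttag
Mmp7: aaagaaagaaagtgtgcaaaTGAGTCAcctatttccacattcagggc
Mmp20: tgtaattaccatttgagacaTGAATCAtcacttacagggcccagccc

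The motif starts 63 bases before the start site of Mmp10, 35 before that of Mmp13 and 46 before that of Mmp3, and Mmp10, Mmp3, Mmp12, Mmp1a, Mmp1b and Mmp7 share the same 7 letters. Mmp10 and 7 genes with no or hardly any reads held the motif, and whether AP-1 binds there was not tested. The chromosome 9 windows were also poor in CG dinucleotides, with a median of 1 over 12 windows, against 7 over all windows, 19 for the Mmp genes elsewhere, 23.5 for Adamts, 26.5 for Adamtsl and 16.0 for Timp genes. Adamts1 and Adamts14, the members with the clearest changes, have CG-rich windows without an AP-1 motif. They are printed whole with each CG in capitals, Adamts1 with 18 of them (chr16:85803064-85803363, minus strand) and Adamts14 with 44 (chr10:61273370-61273669, minus strand).
Adamts1: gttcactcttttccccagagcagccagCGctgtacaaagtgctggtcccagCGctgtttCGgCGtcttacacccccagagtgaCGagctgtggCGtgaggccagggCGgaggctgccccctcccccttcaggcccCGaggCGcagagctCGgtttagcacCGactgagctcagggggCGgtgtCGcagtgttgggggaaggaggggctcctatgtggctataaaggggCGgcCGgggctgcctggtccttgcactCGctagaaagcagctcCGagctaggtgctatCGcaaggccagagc
Adamts14: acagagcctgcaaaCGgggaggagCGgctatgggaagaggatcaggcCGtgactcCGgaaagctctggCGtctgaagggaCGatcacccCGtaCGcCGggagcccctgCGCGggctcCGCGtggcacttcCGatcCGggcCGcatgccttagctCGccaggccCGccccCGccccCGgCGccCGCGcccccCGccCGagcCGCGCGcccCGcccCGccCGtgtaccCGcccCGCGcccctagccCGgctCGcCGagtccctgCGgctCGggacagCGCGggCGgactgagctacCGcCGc

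The full palindromic glucocorticoid receptor motif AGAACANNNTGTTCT, searched on both strands, was in 0 of the members' windows and in 3 of all windows, which says nothing about the receptor. Its first 6 letters, AGAACA on either strand, were in 18.97% of all windows, and among the members in those of Mmp7, Mmp10, Mmp11, Mmp12 and Mmp23. Neither Adamts1 nor Adamts14 held them.

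Per kilobase of exon, Timp2 was highest, at 221 CPM per kb on average over the 24 libraries. Timp1 averaged 40.6 CPM per kb and Mmp14, the membrane-bound enzyme that activates pro-MMP2, 40.1 CPM per kb, with overlapping ranges over libraries. Their order changed between groups. Without IPTG Mmp14 was above Timp1, at 46.4 against 35.1 CPM per kb in ethanol and 42.1 against 38.2 CPM per kb in dexamethasone. With IPTG in ethanol Mmp14 was also above Timp1 in empty vector (43.3 against 39.9 CPM per kb), WT (42.8 against 35.2) and C1 (42.2 against 42.0). Mmp14 was below Timp1 in C2 (38.0 against 40.0) and C1-C2 (41.6 against 41.7), and in every IPTG state in dexamethasone. Timp3 averaged 3.48 CPM per kb, the 9th of the members. Adamtsl3 (14.2 CPM per kb), Adamts1 (13.6 CPM per kb) and Adamtsl4 (11.9 CPM per kb) also overlapped each other. Mmp2, the gelatinase that Mmp14 and Timp2 activate together, was at 0.104 CPM per kb, and Mmp9, the other gelatinase, at 0.0329 CPM per kb. Adamts6 was lowest of the tested genes at 0.0264 CPM per kb.

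**Figure D1:**
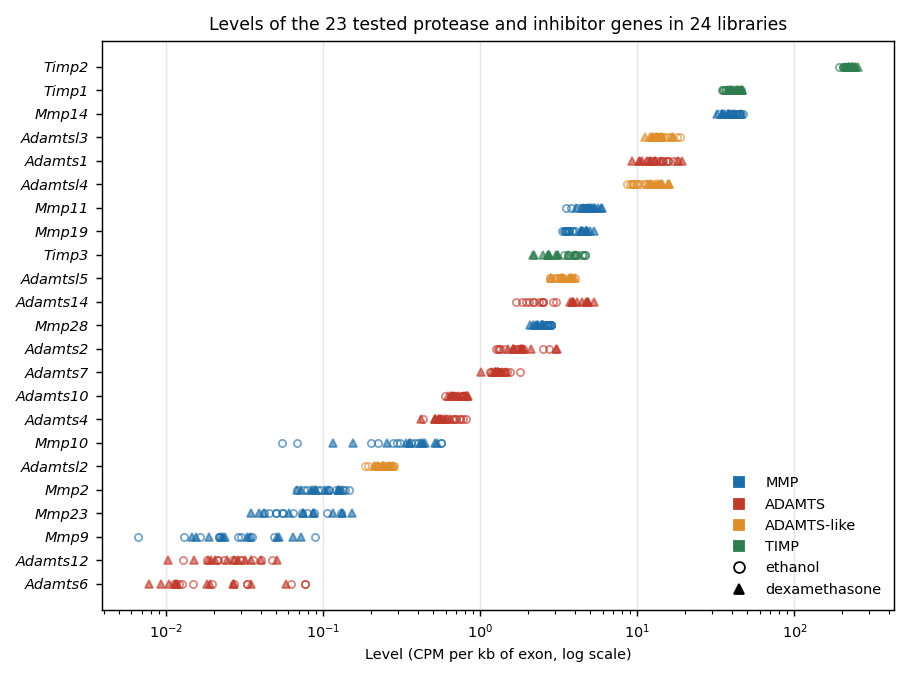
Level of each of the 23 tested genes in each of the 24 libraries, in CPM per kilobase of exon on a log axis; colour gives the family, open circles ethanol and filled triangles dexamethasone. Timp2 averages 221 CPM per kb and Adamts6 0.0264 CPM per kb, and the open and filled marks of Adamts14 stand apart.

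Knockdown was read as empty vector with IPTG minus empty vector without it, which also holds any effect of IPTG itself. In ethanol Mmp10, Adamts14, Adamts4 and Adamtsl5 rose and Adamts2 and Adamtsl3 fell. In dexamethasone Mmp10, Adamts14, Adamtsl5 and Mmp11 rose and Adamts1, Adamts2, Adamtsl3 and Timp3 fell. That was 6 of 23 genes in ethanol, where 13.4% of all 16934 tested genes were called, and 8 of 23 in dexamethasone, where 16.9% were. Both counts include Mmp10, which passed the low-count filter through the lines with IPTG, where it is high. Genes were called with edgeR's quasi-likelihood test at an adjusted p under 0.05, with the p adjusted over all tested genes. The members' median log2 change was 0.18 in ethanol and -0.04 in dexamethasone, against -0.01 and 0.00 over all tested genes. Dropping replicate 2 of the IPTG empty vector in dexamethasone lowered the count from 8 to 4.

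Adamts2 removes the amino propeptide of fibrillar procollagens. It was at 23.4 and 25.7 CPM without IPTG and at 15.5 and 16.7 CPM with it in ethanol, and at 28.5 and 28.4 CPM against 17.2 and 16.6 CPM in dexamethasone. The groups did not overlap in either treatment. Its log2 change was -0.61 (SE 0.104, edgeR adjusted p = 0.000235) in ethanol and -0.75 (SE 0.0988, edgeR adjusted p = 6.78e-06) in dexamethasone, falls of 1.52-fold and 1.69-fold that passed with any of the libraries left out.

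Adamts14, the close relative of Adamts2 with the same kind of substrate, went the other way. Its levels were 8.73 and 9.54 CPM without IPTG and 12.9 and 15.7 CPM with it in ethanol, and 19.4 and 19.99 CPM against 24.3 and 27.5 CPM in dexamethasone. All 4 libraries with IPTG were above their controls of the same treatment. The rise was 0.65 (SE 0.101, edgeR adjusted p = 7.48e-05) in ethanol and 0.39 (SE 0.0865, edgeR adjusted p = 0.00211) in dexamethasone on the log2 scale. The second did not pass without replicate 2 of the IPTG empty vector in dexamethasone (0.31, edgeR adjusted p = 0.0728).

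Adamts1 cuts versican and aggrecan and is known as an early-response gene. In ethanol it was at 88.9 and 94.6 CPM without IPTG and 80.1 and 83.0 CPM with it, a log2 change of -0.17 that did not pass (edgeR adjusted p = 0.207). In dexamethasone it was at 95.8 and 102 CPM without IPTG and 54.3 and 49.0 CPM with it. The last 2 values were the lowest of all 24 libraries. The fall in dexamethasone was 1.91-fold (log2 -0.94, SE 0.084, edgeR adjusted p = 8.53e-08) and passed with each of the 4 libraries left out in turn.

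Adamtsl3, a matrix-binding ADAMTS-like protein, was at 145 and 138 CPM without IPTG and at 103 and 104 CPM with it in ethanol. In dexamethasone the values were 130 and 128 CPM against 97.6 and 86.6 CPM. The groups were apart in both treatments, with log2 changes of -0.45 (SE 0.0856, edgeR adjusted p = 0.00111) and -0.49 (SE 0.085, edgeR adjusted p = 0.000356). Adamtsl5, which is known to bind fibrillin, was at 13.1 and 13.1 CPM against 18.8 and 14.7 CPM in ethanol and 15.9 and 13.3 CPM against 18.4 and 18.8 CPM in dexamethasone. It rose by 0.36 (edgeR adjusted p = 0.0242) and 0.35 (edgeR adjusted p = 0.015) on the log2 scale.

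Mmp10 was below 1 CPM and falls outside the rule for values in every library; it is given because it had the largest change. It had 4 and 4 reads without IPTG and 20 and 16 with it in ethanol, and 12 and 11 against 36 and 35 in dexamethasone. In CPM this was 0.0934 and 0.117 against 0.506 and 0.480, and 0.267 and 0.199 against 0.727 and 0.706. The rise was 4.66-fold (log2 2.22, SE 0.465, edgeR adjusted p = 0.00178) and 3.08-fold (log2 1.62, SE 0.343, edgeR adjusted p = 0.00149), and passed with any library left out. Mmp10 passed the low-count filter through the lines with IPTG, where it is high, so these tests are given as a description. With no low-count filter the adjusted p was 0.00134 and 0.00112 by edgeR. All 20 libraries with IPTG lay between 0.347 and 0.969 CPM, above the 4 without it.

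Mmp11, Adamts4 and Timp3 were each called in 1 treatment. Mmp11, stromelysin 3, was at 11.2 and 12.5 CPM without IPTG and 15.6 and 16.2 CPM with it in dexamethasone (log2 0.42, edgeR adjusted p = 0.00472), and at 9.69 and 12.3 CPM against 13.2 and 12.96 CPM in ethanol, where the change of 0.26 did not pass. Adamts4, an aggrecan-cutting enzyme, was at 2.08 and 2.66 CPM against 3.87 and 2.97 CPM in ethanol (log2 0.55, edgeR adjusted p = 0.0364). Timp3, the matrix-bound inhibitor that also blocks ADAMTS enzymes, was at 29.3 and 32.6 CPM against 25.4 and 24.5 CPM in dexamethasone (log2 -0.31, edgeR adjusted p = 0.0335). Its ethanol values, 31.98 and 33.0 CPM against 36.8 and 37.9 CPM, were apart in the other direction but did not pass (log2 0.20). Without replicate 2 of the IPTG empty vector in dexamethasone the dexamethasone calls of Mmp11, Adamtsl5 and Timp3 ended (edgeR adjusted p = 0.0541, 0.105 and 0.200). That of Timp3 also ended without the other IPTG replicate or no-IPTG replicate 2, that of Adamtsl5 without no-IPTG replicate 2 and that of Mmp11 without no-IPTG replicate 1. In ethanol the calls of Adamts4 and Adamtsl5 ended without replicate 1 of either group, and that of Adamtsl5 also without no-IPTG replicate 2. The call of Adamts4 was also lost with DESeq2 (adjusted p = 0.059), with no low-count filter (edgeR adjusted p = 0.0567) and with only the libraries compared (edgeR adjusted p = 0.0923). That of Adamtsl5 in ethanol was lost with the trend over GC content and gene length removed (edgeR adjusted p = 0.0746).

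Mmp14, Timp2 and Timp1, the most abundant members, were not called with knockdown. Mmp14 changed by -0.10 (95% interval -0.371 to 0.170) in ethanol and -0.09 (-0.357 to 0.183) in dexamethasone on the log2 scale, and Timp2 by 0.02 (-0.114 to 0.145) and -0.01 (-0.140 to 0.118). Timp1 was at 31.3 and 31.1 CPM without IPTG and 36.6 and 34.2 CPM with it in ethanol, and at 34.8 and 33.0 CPM against 38.9 and 37.6 CPM in dexamethasone. Its groups were apart in both treatments, and the log2 changes of 0.18 (95% interval 0.00148 to 0.364) and 0.18 (0.00247 to 0.351) did not pass over all genes (edgeR adjusted p = 0.162 and 0.139).

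**Figure D2:**
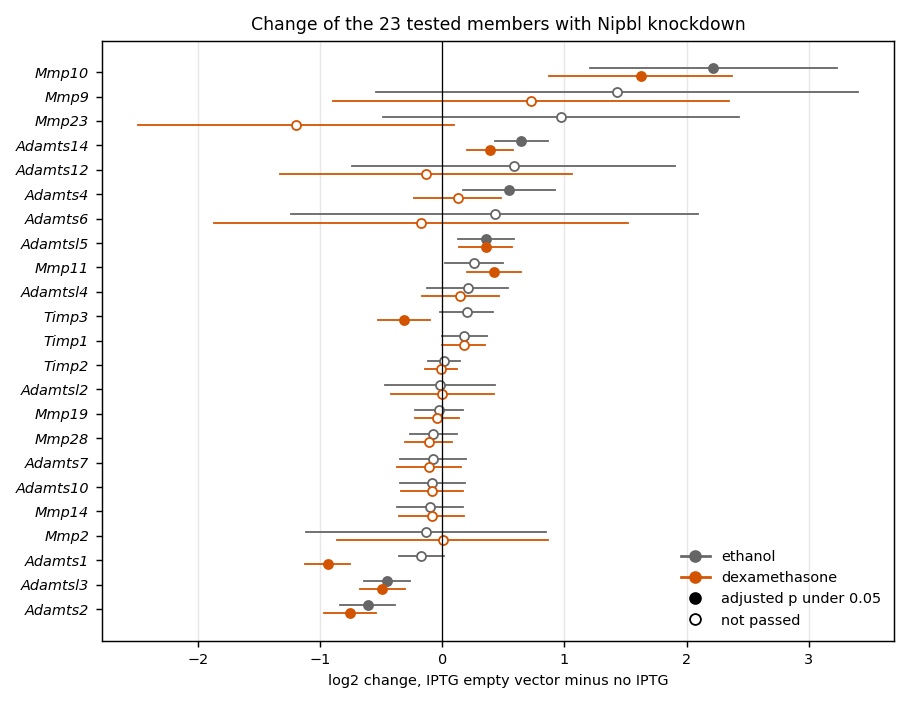
Log2 change with Nipbl knockdown (IPTG empty vector minus no IPTG) of the 23 tested genes, with 95% intervals; grey is ethanol, orange dexamethasone, and filled points passed an adjusted p of 0.05. Mmp10 stands at 2.22 and 1.62, Adamts2 at -0.61 and -0.75, and Adamts1 at -0.17 in ethanol and -0.94 in dexamethasone.

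Of 28 matrix substrates 18 were tested: 5 rose and 5 fell with knockdown in ethanol, where 13.4% of all tested genes were called, and 4 rose and 6 fell in dexamethasone, where 16.9% were. Thbs2, a thrombospondin at only 0.413 to 3.08 CPM here, fell by 1.96 and 1.93 on the log2 scale. Thbs1 fell by 0.97 and 0.77, and Col6a1, a chain of collagen VI, by 0.95 and 0.97. Col1a1, a collagen I chain at only 0.400 to 2.05 CPM here, rose by 1.21 and 1.43. Vcan, the versican that Adamts1 cuts, rose by 0.38 and 0.28 (edgeR adjusted p = 0.0111 and 0.049). Of 24 activators and inhibitors 12 were tested, of which 1 rose and 1 fell in each treatment. Furin, the convertase that activates Mmp14 and ADAMTS precursors, rose by 0.52 and 0.35. Of 20 other enzymes of the wider metzincin group 9 were tested, of which 1 rose and 1 fell in ethanol and 2 rose and 1 fell in dexamethasone. Adam8 fell (-0.61 and -0.64) and Bmp1, a procollagen C-proteinase, rose (0.36 and 0.29) in both treatments. The list medians lay between -0.26 and 0.12. Among the marker genes Krt14 (-0.37 and -0.42) and Pdgfrb (-0.45 and -0.45) fell too; their part in these changes was not tested.

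With dexamethasone over 2 h, 5 of 23 members were called in cells without IPTG, where 38% of all tested genes were called. In the IPTG lines the members called were 8 of 23 with empty vector (32.5% of all genes), 6 with WT (28.5%), 7 with C1 (32.2%), 9 with C2 (32.5%) and 6 with C1-C2 (32.3%). Those in C1-C2 include Mmp9, which had few reads and passed the low-count filter in part through that group. Adamts14 and Mmp19 rose in all 6 states, and Timp3 fell in the 5 states with IPTG. The other calls differed in which states passed, and those differences were not tested. With single libraries left out the counts fell to as few as 3 without IPTG, 4 with empty vector, 3 with WT, 3 with C1, 5 with C2 and 3 with C1-C2. The libraries that moved a count by more than 1.5 times were both dexamethasone replicates and ethanol replicate 1 without IPTG, all 4 of empty vector, ethanol replicate 1 of WT, both replicate 2 libraries of C1 and of C2, and dexamethasone replicate 2 and ethanol replicate 1 of C1-C2.

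Adamts14 had the largest response among members of at least 1 CPM. Over all 6 states its ethanol libraries lay between 8.73 and 15.7 CPM (median 11.9) and its dexamethasone libraries between 19.4 and 27.5 CPM (median 22.3), with no overlap. The rise without IPTG was 2.16-fold (log2 1.11, SE 0.0961, edgeR adjusted p = 1.27e-09). With IPTG the log2 rise was 0.86 in empty vector, 1.01 in WT and 0.84, 0.90 and 0.88 in the C1, C2 and C1-C2 mutants. Each of the 6 passed with any library left out, and the change of this response by knockdown, -0.25 (95% interval -0.544 to 0.034), did not pass.

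Mmp19, a secreted metalloproteinase with a broad range of matrix substrates, was at 11.6 to 14.1 CPM in ethanol (median 12.6) and at 15.5 to 18.6 CPM in dexamethasone (median 16.6), again without overlap. Its values without IPTG were 12.9 and 14.1 CPM in ethanol and 18.6 and 16.6 CPM in dexamethasone. The rise was 1.28-fold to 1.31-fold in the 6 states, log2 0.35 to 0.38, with edgeR adjusted p from 0.000836 to 0.00244. It lost its call without replicate 2 of the ethanol empty vector with IPTG, replicate 1 of WT in ethanol or replicate 2 of C2 in ethanol, in those lines.

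Timp3 was at 31.98 and 33.0 CPM in ethanol and 29.3 and 32.6 CPM in dexamethasone without IPTG, which overlapped (log2 -0.07, edgeR adjusted p = 0.635). With IPTG the 10 ethanol libraries lay between 27.7 and 37.9 CPM (median 33.1) and the 10 dexamethasone libraries between 17.7 and 25.4 CPM (median 22.1). The falls were -0.58 in empty vector (SE 0.0997, edgeR adjusted p = 0.000104), -0.45 in WT and -0.64, -0.65 and -0.68 in the C1, C2 and C1-C2 mutants, and each passed with any library left out. The change of the response by knockdown was -0.51 (95% interval -0.82 to -0.208), which did not pass over all genes (edgeR adjusted p = 0.28).

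Adamtsl4, a fibrillin-binding ADAMTS-like protein, was at 36.0 and 41.3 CPM in ethanol and 49.1 and 60.2 CPM in dexamethasone without IPTG. It rose by 0.51 there and by 0.45, 0.51 and 0.56 in empty vector, C2 and C1-C2 with IPTG. WT and C1, both at 0.38, did not pass (edgeR adjusted p = 0.0672 and 0.0613). Timp2 went from 806 and 854 CPM to 994 and 905 CPM without IPTG (log2 0.19, edgeR adjusted p = 0.0117) and was also called in empty vector (0.17) and C1 (0.17). Mmp28, epilysin, was at 10.9 and 10.8 CPM in ethanol and 8.92 and 9.46 CPM in dexamethasone without IPTG. It fell by 0.24 there (edgeR adjusted p = 0.0351) and by 0.28 in both empty vector and WT. Without IPTG, the call of Adamtsl4 ended without dexamethasone replicate 2 or ethanol replicate 1, that of Timp2 without replicate 1 of either group, and that of Mmp28 with any of the 4 libraries left out. The calls of these 3 genes in the IPTG lines each ended with 2 to 4 of the 4 libraries left out in turn.

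Adamts4 was called lower in all 3 mutants (C1 -0.44, C2 -0.62, C1-C2 -0.43). Its values without IPTG (0.23), in empty vector (-0.19) and in WT (-0.16) did not pass. The change of its response by knockdown, -0.42 (95% interval -0.935 to 0.101), did not pass either, and differences between the mutants and WT in this response were not tested. Mmp11 was called higher in empty vector (0.28) and C2 (0.30), Adamts2 in C1 and C2 (0.29 each), Timp1 in WT (0.22) and C2 (0.21), and Adamts7 lower in WT (-0.32). The call of Adamts4 in C2 ended without dexamethasone replicate 2, and those in C1 and C1-C2 with any of their 4 libraries left out. Both of the latter were also lost with DESeq2 and with no low-count filter, and that in C1 with only the libraries compared. Each of the other calls in this paragraph ended with 2 to 4 of the 4 libraries left out in turn. Mmp9 was called in C1-C2 on 3 and 2 reads in ethanol against 8 and 14 in dexamethasone (log2 1.83, edgeR adjusted p = 0.0399), and that call ended with any of the 4 libraries left out. The call was also lost with DESeq2, with no low-count filter and with the GC and length trend removed. Mmp9 passed the low-count filter in part through C1-C2 in dexamethasone, where it is high, so this test is given as a description. Mmp10, whose promoter window holds an AP-1 motif, was not called lower with dexamethasone in any state. It had only 4 to 56 reads per library, so a fall could go uncalled, and any part of AP-1 was not tested. Its log2 change was 1.13 without IPTG (95% interval 0.0198 to 2.24, edgeR adjusted p = 0.0927), 0.53 in empty vector and 0.52 in WT, and 0.23, -0.15 and 0.05 in the mutants C1, C2 and C1-C2; none passed. Adamts10, Adamts12, Adamtsl2, Mmp2, Mmp14 and Mmp23 were called in none of the 18 comparisons.

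The treatment groups also differed in the trend of counts over GC content. Genes of the top GC quartile minus those of the bottom quartile stood at -0.27 to -0.15 (log2) in the ethanol libraries and 0.09 to 0.27 in the dexamethasone libraries, and the library numbers in the labels run in separate blocks by treatment, so library handling and dexamethasone cannot be told apart. With the trend over GC and gene length taken out, the rises of Adamts14 (0.68 to 0.89) and Mmp19 and the falls of Timp3 (-0.65 to -0.44) still passed in the same states. The dexamethasone calls of Timp1, Timp2, Mmp11 and Adamts2 were lost then, as were that of Mmp9 in C1-C2 (edgeR adjusted p = 0.0887) and those of Adamtsl4 except in C1-C2. Timp2 turned to -0.0010 without IPTG and -0.0051 in empty vector, and Timp1 in C2 to -0.0096.

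**Figure D3:**
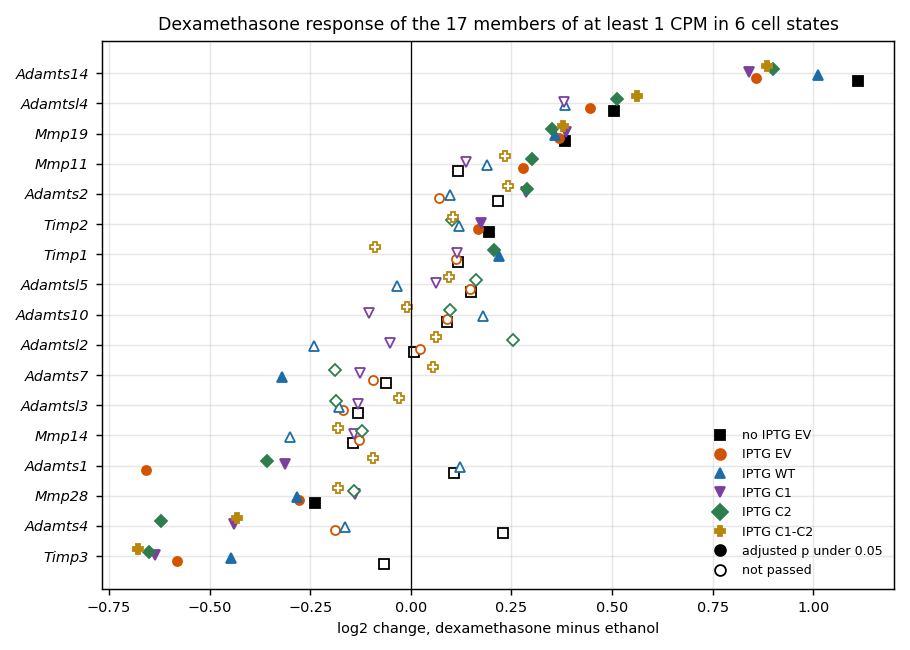
Log2 change with dexamethasone of the 17 members of at least 1 CPM in the 6 states, with symbols by state and filled symbols for an adjusted p under 0.05. Adamts14 lies at 0.84 to 1.11, Mmp19 at 0.35 to 0.38, and Adamts1 runs from -0.66 in IPTG empty vector to 0.12 in WT.

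Of the 12 tested activators and inhibitors 4 rose and 3 fell with dexamethasone without IPTG, where 38% of all tested genes were called. Furin rose 2.12-fold (log2 1.09), and Plau, the urokinase that generates plasmin, fell 5.90-fold (-2.56) and its receptor Plaur 1.70-fold (-0.77). Of the 18 matrix substrates 4 rose and 2 fell, among them Thbs1 (-1.37), Thbs2 (-0.65) and Col4a1 (0.63). Among the 9 other metzincins 3 rose and 1 fell, with Adam15 at 0.37, Adam10 at -0.31 and Bmp1 at 0.26. The corresponding medians were 0.22, 0.11 and 0.09, and 0.01 over all tested genes.

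Adamts1 was the only member called for a difference in its dexamethasone response. It was 0.11 without IPTG (95% interval -0.0738 to 0.287) and -0.66 in empty vector with IPTG (SE 0.0848, edgeR adjusted p = 3.21e-06). With WT NIPBL it was 0.12 (-0.0601 to 0.305), with C1 -0.31 (edgeR adjusted p = 0.00646) and with C2 -0.36 (edgeR adjusted p = 0.00209). The C1-C2 value was -0.10 (-0.279 to 0.0885). The change by knockdown was -0.77 (SE 0.118, 95% interval -1.02 to -0.508, edgeR adjusted p = 0.00467). It was the only member among the 29 genes called for this change, 0.171% of all tested genes. DESeq2 called it too, and Mmp23 and Timp3 were the other members at an unadjusted p under 0.05.

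The response in WT minus that in empty vector was 0.78 (SE 0.119, 95% interval 0.522 to 1.04, edgeR adjusted p = 0.0159). Only Adamts1 and Nrip1 were called in this comparison, 0.0118% of all tested genes. This comparison was added after the values were seen, and it shares the 4 IPTG empty-vector libraries with the change by knockdown, so that a low value in those libraries enters both. The change by knockdown lost its call without replicate 2 of the IPTG empty vector in dexamethasone (edgeR adjusted p = 0.0504), its replicate 2 in ethanol (0.0677) or replicate 1 of the no-IPTG ethanol group (0.0525). The difference for WT lost it without replicate 2 of empty vector in dexamethasone, either replicate of empty vector in ethanol, replicate 2 of WT in dexamethasone or replicate 1 of WT in ethanol (edgeR adjusted p = 0.0723 to 0.383), while the estimates ran from -0.84 to -0.69 and from 0.68 to 0.86. The falls in C1 and C2 did not pass without dexamethasone replicate 2 of those lines.

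**Figure D4:**
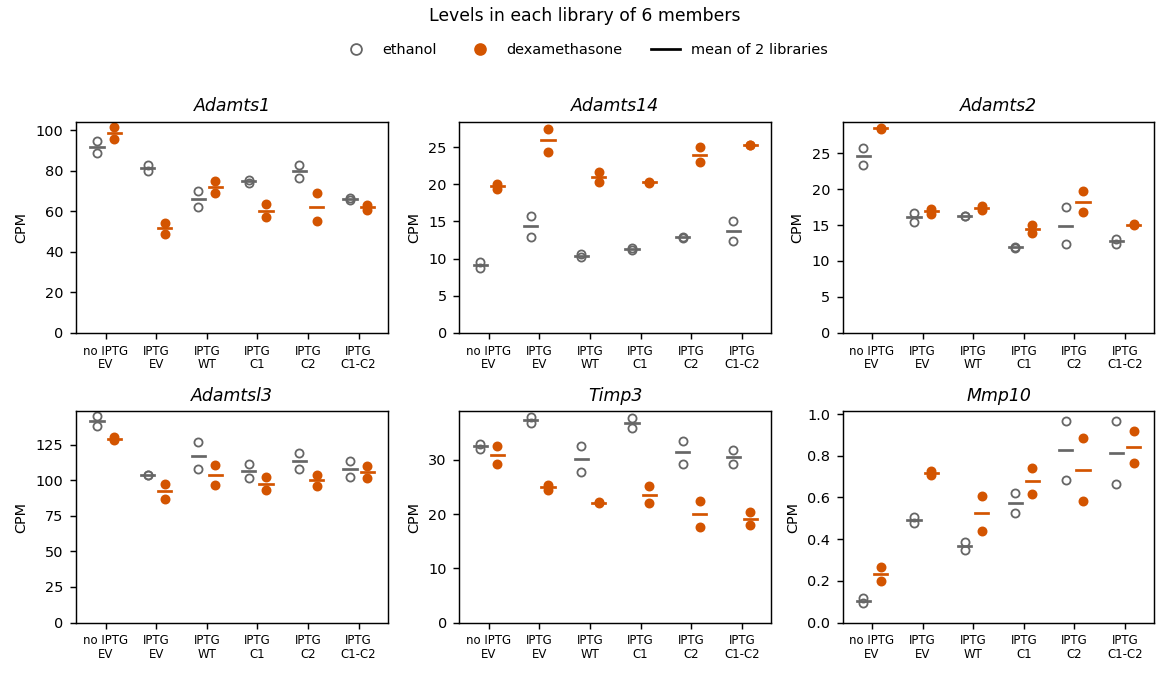
Level in CPM of 6 members in each library, by state, with ethanol as open grey and dexamethasone as filled orange points and a bar at the mean of 2 libraries. The orange points of Adamts1 lie at 54.3 and 49.0 CPM in IPTG empty vector and at 95.8 and 102 CPM without IPTG, and those of Adamts14 lie above the grey in all 6 states.

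The line with WT NIPBL was compared with the empty-vector line, both with IPTG. Nipbl counts were not detectably higher in the WT line, at 70.4 and 62.7 CPM against 65.1 and 62.6 CPM in ethanol (log2 0.06, edgeR adjusted p = 0.894) and 66.2 and 55.1 CPM against 54.4 and 56.5 CPM in dexamethasone (log2 0.13, edgeR adjusted p = 0.509). Whether reads of the construct are counted as Nipbl was not tested. In ethanol 1 of 23 members was called, where 1.16% of all tested genes were, and in dexamethasone 4 of 23, where 4.2% were. The 4 include Adamts6, which passed the low-count filter through the lines where it is high, and are 3 without it. Adamts14 was lower in WT in both treatments, at 10.2 and 10.6 CPM against 12.9 and 15.7 CPM in ethanol (log2 -0.46, SE 0.0987, edgeR adjusted p = 0.0137) and at 21.6 and 20.3 CPM against 24.3 and 27.5 CPM in dexamethasone (log2 -0.31, edgeR adjusted p = 0.0416). Adamts1 was higher in WT in dexamethasone, at 68.9 and 75.0 CPM against 54.3 and 49.0 CPM (log2 0.48, SE 0.084, edgeR adjusted p = 0.00205). In ethanol it was at 62.1 and 70.1 CPM against 80.1 and 83.0 CPM, below the empty vector without passing (log2 -0.30, edgeR adjusted p = 0.0986). Adamtsl5 was lower in WT in dexamethasone, at 15.6 and 13.3 CPM against 18.4 and 18.8 CPM (log2 -0.36, edgeR adjusted p = 0.0378). For Adamts14, Adamts1 and Adamtsl5 the same IPTG empty-vector libraries enter the change with knockdown, so a high or low value there enters both.

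Adamts2 did not differ detectably between WT and empty vector, with 16.2 and 16.3 CPM against 15.5 and 16.7 CPM in ethanol and 17.7 and 17.1 CPM against 17.2 and 16.6 CPM in dexamethasone. The log2 differences were 0.02 (95% interval -0.214 to 0.248) and 0.04 (-0.177 to 0.261). These values use the same empty-vector libraries as its fall with knockdown. Adamtsl3 differed by 0.18 (-0.0069 to 0.367) and 0.17 (-0.0152 to 0.355), and Mmp10 by -0.43 (-1.22 to 0.362) and -0.44 (-1.09 to 0.201), none of which passed.

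Adamts6, an ADAMTS protease linked to fibrillin matrix, had 26 and 14 reads in WT against 3 and 4 in empty vector in dexamethasone (log2 2.31, SE 0.584, edgeR adjusted p = 0.0247) and 24 and 19 against 6 and 3 in ethanol (log2 2.11, edgeR adjusted p = 0.0609). Without IPTG it had 3 or 4 reads in each of the 4 libraries. C1 had 8 to 23 reads, C2 4 to 11 and C1-C2 4 to 10. Since it passed the low-count filter through these lines, its tests are given as a description.

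Without replicate 2 of empty vector in dexamethasone none of the 4 dexamethasone calls passed, Adamts1 among them (0.41, edgeR adjusted p = 0.0664). Without replicate 1 of empty vector 1 call passed, and without either WT replicate 2 did. The dexamethasone call of Adamts14 ended with any of its 4 libraries left out, with only the libraries compared (edgeR adjusted p = 0.118) and with the GC and length trend removed (-0.22, edgeR adjusted p = 0.153). Its ethanol call ended without replicate 2 of empty vector or either replicate of WT, where the edgeR adjusted p reached 0.362, and with only the libraries compared (edgeR adjusted p = 0.0806). The calls of Adamtsl5 and Adamts6 in dexamethasone ended with only the libraries compared (edgeR adjusted p = 0.101 and 0.0865), and that of Adamtsl5 also with the trend removed (edgeR adjusted p = 0.124). Of the related lists, the matrix substrates had 2 higher and 1 lower in ethanol (Thbs2 1.02, Vcan -0.45, Col5a1 0.32) and the other metzincins 1 higher and 1 lower (Adam8 0.56, Bmp1 -0.20). In dexamethasone Thbs2 (0.98), Col5a1 (0.23) and Adam8 (0.41) were higher and Bmp1 (-0.24) lower.

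Few members were called between the mutants and WT NIPBL. In ethanol 1 member was called for C1 (2% of all tested genes), 0 for C2 (2%) and 1 for C1-C2 (0.768%), and in dexamethasone 0 for C1 (5.33%), 0 for C2 (5.17%) and 0 for C1-C2 (1.41%), by edgeR. DESeq2 also called 0 where edgeR called 0. With no low-count filter edgeR called 1 for C2 in ethanol and 2, 1 and 2 for C1, C2 and C1-C2 in dexamethasone. At an unadjusted p under 0.05 edgeR had 6 members for C2 in ethanol and 5, 5 and 6 for C1, C2 and C1-C2 in dexamethasone.

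The 2 calls were in different mutants and in opposite directions. Adamts2 was lower in C1 than in WT in ethanol, at 11.7 and 12.01 CPM against 16.2 and 16.3 CPM (log2 -0.45, SE 0.109, edgeR adjusted p = 0.0261), and in dexamethasone at 15.0 and 13.9 CPM against 17.7 and 17.1 CPM without passing (log2 -0.26, edgeR adjusted p = 0.127). The ethanol call ended with any of its 4 libraries left out. Adamts14 was higher in C1-C2 than in WT in ethanol, at 12.3 and 15.1 CPM against 10.2 and 10.6 CPM (log2 0.40, edgeR adjusted p = 0.0495). This call ended without either WT replicate in ethanol and with only the libraries compared. Without replicate 2 of C1-C2 in ethanol, the library whose labels disagree, the difference was 0.25 and the call also ended. Without that library the dexamethasone calls in C1-C2 of Adamts14 (1.03), Mmp19 (0.41), Timp3 (-0.62) and Adamtsl4 (0.68) passed, and those of Adamts4 and Mmp9 did not.

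Adamts1 in dexamethasone was at 63.5 and 57.0 CPM in C1, at 69.1 and 55.3 CPM in C2 and at 63.3 and 60.7 CPM in C1-C2. The 3 means lay between those of WT and empty vector. The differences from WT were -0.25 (95% interval -0.435 to -0.0737), -0.21 (-0.389 to -0.0274) and -0.21 (-0.396 to -0.0323), and none passed over all genes (edgeR adjusted p = 0.0779, 0.143 and 0.249). Mmp10 in ethanol was at 0.685 and 0.969 CPM in C2 and 0.664 and 0.965 CPM in C1-C2 against 0.347 and 0.385 CPM in WT. Both differences were 1.16 on the log2 scale and did not pass (edgeR adjusted p = 0.0719 and 0.127).

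Exons of Adamts7, Mmp11, Mmp19, Mmp28 and Timp3 overlap an exon of a gene on the opposite strand (Tbc1d2b, Chchd10, Tmem198b, 1700020L24Rik and Syn3), and those of Adamts4 also overlap a gene there. The library kit keeps strand, but the strand setting of the counting is not given in the sources used here, so reads of these partners cannot be told apart from the members'.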

How the data were processed

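The authors deposited raw counts per gene name for 24 libraries of total RNA (stranded, ribosomal RNA depleted, per the labels' protocols). Per the submitters' processing notes, bcl2fastq 2.20, cutadapt 1.18, STAR 2.7.0f, featureCounts (Subread 2.0.3) and mm10 were used. The strand setting, the annotation and the treatment of reads with several alignments are not given in the sources used here. The table had 0 value columns outside the 24 libraries.

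Counts were tested with edgeR 4.0.16 (quasi-likelihood, robust, TMM factors, filterByExpr) in R 4.3.3, with limma 3.58.1, in 1 model with a mean for each of 12 groups and 12 residual degrees of freedom. The filter left 16934 genes, with a median biological coefficient of variation of 6.43%, and took out 38407. P-values were adjusted by Benjamini-Hochberg over all tested genes of each of 18 comparisons, with calls at adjusted p under 0.05. CPM are counts scaled to the TMM-adjusted library size. Intervals are 95%, from the SE and a t distribution. A value of a group is the mean of 2 libraries. Counting error weighs most on genes of few reads. These include the genes below 1 CPM and also Adamts4 (89 to 195 reads per library) and Adamtsl2 (54 to 140). The procedure was tested on simulated data.

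All 51 genes had exon lengths, GC content and positions in GENCODE vM21. Values in every library are given for members of at least 1 CPM called with knockdown, with dexamethasone without IPTG or in WT against empty vector, and up to 4 genes of a related list, some of which are not reported here. The members and lists were chosen with earlier results of these data known, and the comparison of responses between WT and empty vector was added after its values were seen. Alternatives were RLE size factors, no low-count filter, DESeq2 1.42.0, only the libraries compared, a replicate block, GC and length trends removed, and each library left out, where the lone library of a group is assumed to vary like the others.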

Additional observations from a re-analysis of the deposited data

Results flagged for a closer look

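A test of the difference itself marked Adamts1. Its dexamethasone response changed by -0.77 (log2) with knockdown and was 0.78 higher with WT NIPBL than with empty vector (edgeR adjusted p = 0.00467 and 0.0159). Both comparisons use the same 4 IPTG empty-vector libraries.

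Other results are listed only because the compared groups did not overlap in either of a pair of comparisons and the changes had opposite signs. With so few libraries per group such patterns can arise by chance. How often they occur over all tested genes was not counted, so they are not shown to be unusual. The differences between the opposite changes were not tested, and most of the changes below did not pass on their own. The dexamethasone change of Adamts1 was 0.11 without IPTG against -0.31, -0.36 and -0.095 for the C1, C2 and C1-C2 mutants. That of Adamts10 was 0.09 without IPTG and 0.18 in WT against -0.10 in C1. Mmp23, at 4 to 19 reads per library, was at -1.04 in empty vector and 0.97 in C2. Adamtsl2 was at -0.24 in WT and 0.25 in C2.

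Between mutants and WT NIPBL, Adamts1 in C1 stood at 0.18 in ethanol and -0.25 in dexamethasone, and Adamts4 in C2 at 0.23 and -0.23. Adamtsl2 in C2 stood at -0.30 and 0.19, Adamts4 in C1-C2 at 0.20 and -0.064, and Mmp9 in C1-C2, on 2 to 14 reads per library, at -0.71 and 1.40. Groups of 2 cannot be examined for single libraries that lie apart.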

How the results depend on the processing

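Of the 64 called member values, 23 held with every library left out in turn, 38 under all 6 other alternatives, and 3 reversed, all with the GC and length trend removed: Timp2 at -0.0010 without IPTG and -0.0051 in empty vector, and Timp1 at -0.0096 in C2. The cause of the reversals was not tested. By setting, 10 of 63 calls were lost with DESeq2, 13 of 64 besides the 3 reversals with the trend removed, 3 of 64 with RLE size factors, 7 of 64 with no low-count filter, 15 of 63 with only the libraries compared and 0 of 64 with a replicate block.

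Counts of called members moved by more than 1.5 times as follows. With the trend removed, dexamethasone had 3 without IPTG and 5 in empty vector, and WT against empty vector 2 in dexamethasone. For WT against empty vector in ethanol there were 2 with DESeq2, 4 with no low-count filter and 2 with the replicate block, and in dexamethasone 1 with only the libraries compared. With no low-count filter, ethanol comparisons with WT gave 3 for C1, 1 for C2 and 3 for C1-C2, dexamethasone ones gave 2 for C1, 1 for C2 and 2 for C1-C2, and the response change by knockdown gave 2. With only the libraries compared, C1-C2 in ethanol had 0 and the response change 2.

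Libraries left out in turn gave 4 to 6 calls for knockdown in ethanol, 4 to 7 in dexamethasone, and for dexamethasone 3 to 4 without IPTG, 4 to 5 in empty vector, 3 to 7 in WT, 3 to 5 in C1, 5 to 7 in C2 and 3 to 4 in C1-C2. WT against empty vector had 0 to 1 in ethanol and 0 to 2 in dexamethasone. The mutants had 0 to 1 in each ethanol comparison and for C2 in dexamethasone, and the response changes 0 to 1. Fewer libraries leave fewer degrees of freedom.

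Replicate numbers were not taken to pair the libraries, since not every correlation was over 0.1: correlations of deviations ran from -0.22 to 0.18 over 30 pairs of groups within a treatment and from -0.12 to 0.28 over 36 between treatments. The replicate block gave 7 calls for knockdown in ethanol and 9 in dexamethasone, 2 for C1-C2 against WT in ethanol, and 3, 1 and 2 for C1, C2 and C1-C2 in dexamethasone.

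Depth limits the 6 tested genes below 1 CPM, whose intervals are wide, and the 28 not tested, where no difference was measurable. With library blocks that follow the treatment, library handling and treatment cannot be told apart, and with 1 line per construct, neither can construct and line.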
